A study of Nothobranchius furzeri with 20 samples.

Results

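The 100 genes described here are those whose share of the sequenced RNA varied least over brains of the turquoise killifish at 2 ages, with and without rotenone. They were chosen from a table of 26739 genes in 20 libraries. Each count was divided by its library total and scaled to CPM, the usual unit for a share of a library. Among the 9054 genes with a mean of at least 20 CPM, the 100 genes of highest mean were left out, which left 8954 genes past this level filter. Of these, the 100 with the lowest coefficient of variation (CV, the SD over all 20 libraries divided by the mean) were taken. These values chose the genes, so levels, spreads and differences between groups within the set are given as a description.

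The turquoise killifish, Nothobranchius furzeri, is a short-lived annual fish used to study ageing, and the fish here were males of strain MZM-04/10p. The groups were fish of 27 weeks given rotenone (1% of its LC50, a standard measure of lethal concentration), fish of 27 weeks given the solvent DMSO, fish of 9 weeks given rotenone at the same level, and fish of 9 weeks given DMSO, with 5 libraries each. The labels give no length of treatment. They give no batch either, so batch and group cannot be told apart. Nothing says whether libraries stand for different animals, and the p-values rest on a spread that may be technical. Library totals ran from 19433958 to 24159773 counts. No library was left out.

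Every cell needs a core of genes for protein synthesis, energy supply and upkeep of its structure, and some of these are transcribed at a nearly even rate under many conditions. Genes of this kind serve as internal references, against which other transcripts are scaled in quantitative PCR. Rotenone blocks complex I of the mitochondrial respiratory chain, and the ageing brain is known for shifts in the expression of immune, synaptic and mitochondrial genes, so a reference for such a study has to hold still across both factors. In whole-brain RNA, fewer cells of a type and less RNA per cell cannot be told apart. CPM are shares of a library, so a change of all RNA together would not be seen.

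The files name genes by identifiers of the form Nfu_g_1 followed by a number. The RefSeq gene table used here matched 0 of them, so no member can be given a name or a function, the known reference genes could not be looked up, and the labelled tissue could not be checked against markers of brain cells. No sequences are shown for the same reason.

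The members were held within a narrow band. The CV of the 100 genes ran from 3.16% to 4.59%, with a median of 4.23%, where the median of all genes past the level filter was 11.5%. The highest CPM of a member over the libraries was 1.12 to 1.26 times its lowest, with a median ratio of 1.17, against 1.52 among genes past the filter. The border of the set was not a gap. The last member, Nfu_g_1_003699, had a CV of 4.594%, and the first gene outside, Nfu_g_1_006043, one of 4.597%. The next 100 genes in the ranking had CVs up to 5.02%.

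**Figure D1:**
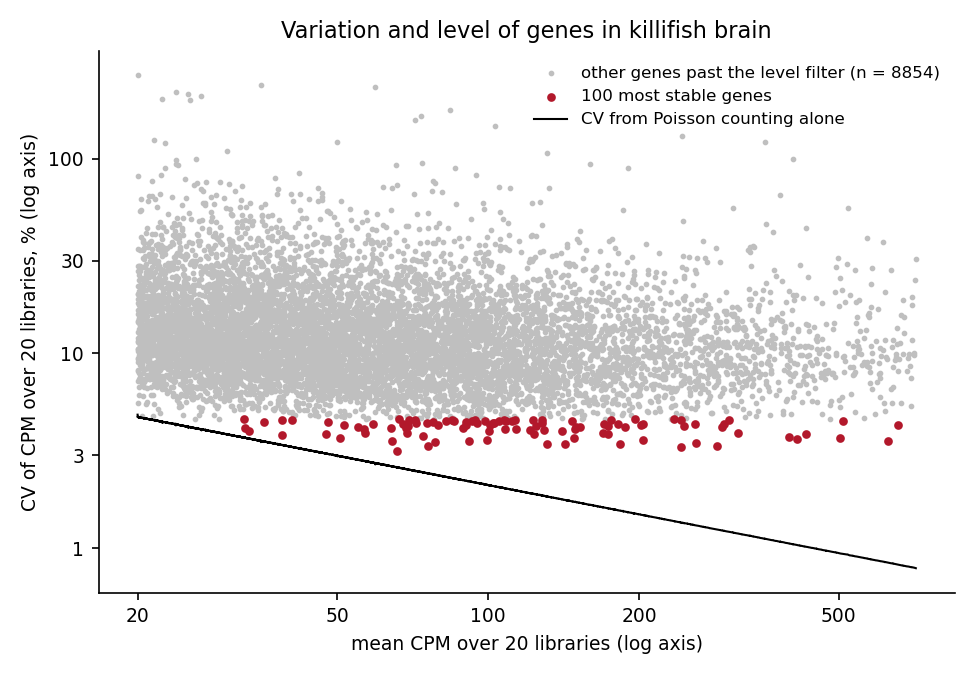
CV of CPM over 20 libraries (vertical, log axis, %) against mean CPM (horizontal, log axis) for the 100 most stable genes (red) and the other genes past the level filter (grey). The line is the CV that Poisson counting alone gives. Members lie below 4.6% and come close to the line at their lowest levels, from 32.6 CPM. At levels under 21.2 CPM, below all members, 241 genes had a counting CV above that of the last member.

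Members were mostly well expressed. Their mean CPM ran from 32.6 to 656, with a median of 108 CPM against 53.5 CPM for genes past the filter, and 89 of the 100 lay above the median level of those genes. The lowest 2 deciles of the filtered genes by level, up to 29.4 CPM, held 0 members each, and the highest 2 held 23 and 22. Poisson counting alone gave 241 genes, all under 21.2 CPM, a CV above that of the last member. For members, counting made up a median of 22.7% of the CPM variance (from 3.72% to 82.5%), against 5.47% for genes past the filter, and in 13 members it made up at least 50% of it.

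Per length, the members were spread over a wide range of levels. Gene lengths were recovered from the deposited RPKM table, and RPKM (CPM per kilobase of gene) were recomputed with each library's own total. Mean RPKM of the members ran from 5.28 to 165, with a median of 29.04 against 16.3 for genes past the filter. Length was not used by the rule. The members' median length was 4503 bases, from 636 to 13576, against 3748.5 bases for genes past the filter. Of 3 length classes of equal size, the shortest, up to 2620 bases, held 20 members, the middle one 41 and the longest 39. Longer genes also had higher CPM: among filtered genes above the median level the median length was 4537 bases, and 4837 bases for the 89 members among them.

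The member of lowest CV was Nfu_g_1_008588, with a length of 4360 bases and a mean of 65.7 CPM. It stood at 63.6, 61.8, 65.7, 63.9 and 63.3 CPM in rotenone libraries of 27 weeks and at 63.9, 65.1, 65.4, 63.7 and 66.5 CPM in DMSO libraries of 27 weeks. At 9 weeks it stood at 68.2, 65.3, 68.8, 66.2 and 66.1 CPM in rotenone libraries and at 68.7, 65.6, 69.9, 66.6 and 66.3 CPM in DMSO libraries. Libraries of 27 weeks were on the low side of a narrow range, and the ages overlapped in both treatments. Its log2 difference between 27 and 9 weeks was -0.08 in rotenone fish (95% interval -0.16 to -0.01) and -0.08 in DMSO fish (-0.15 to -0.01). Neither was called over all genes (edgeR adjusted p = 0.0699 and 0.0994). Age held 51.4% of the variance of its log2 CPM, and 42.7% lay within groups. Poisson counting alone was expected to give 67.9% of its CPM variance. The share of counting was computed apart from the shares of log2 CPM, so they are not parts of 1 total.

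Nfu_g_1_008103, second by CV, was more abundant and showed no such order by age. It stood at 260.0, 231, 232, 242 and 239 CPM in rotenone libraries of 27 weeks, against 245, 241, 241, 240.3 and 250.2 CPM in DMSO libraries of 27 weeks. At 9 weeks it stood at 232, 243, 248, 239.6 and 236 CPM in rotenone libraries and at 244, 238, 242, 242 and 262 CPM in DMSO libraries. The groups overlapped in all 4 comparisons, and 90.4% of the variance of its log2 CPM lay within groups. The 95% interval of its log2 difference between 27 and 9 weeks ran from -0.08 to 0.07 in rotenone fish and from -0.12 to 0.04 in DMSO fish. Nfu_g_1_003681, next by CV, averaged 293 ± 7.64 CPM in rotenone libraries of 27 weeks, 286 ± 8.22 CPM in DMSO libraries of 27 weeks, 283 ± 11.8 CPM in rotenone libraries of 9 weeks and 284 ± 9.04 CPM in DMSO libraries of 9 weeks (SD, n = 5 each).

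Nfu_g_1_015043, the member of highest mean, averaged 660.2 ± 11.5 CPM in rotenone and 659.9 ± 35.4 CPM in DMSO libraries of 27 weeks, and 649 ± 28.8 CPM in rotenone and 655 ± 37.6 CPM in DMSO libraries of 9 weeks (SD, n = 5 each). All its group means lay within 1 SD of each other, and 97.2% of the variance of its log2 CPM lay within groups. Nfu_g_1_013961, the member of lowest mean, averaged 32.02 ± 0.807 CPM in rotenone and 33.9 ± 1.53 CPM in DMSO libraries of 27 weeks, and 31.5 ± 1.23 CPM in rotenone and 32.95 ± 1.45 CPM in DMSO libraries of 9 weeks (SD, n = 5 each). Its mean CPM with rotenone differed from that with DMSO by -5.42% at 27 weeks and by -4.39% at 9 weeks, with overlap between the groups, and neither difference was called (edgeR adjusted p = 0.535 and 0.906). Rotenone held 31.7% of the variance of its log2 CPM. The member of next lowest mean, Nfu_g_1_000082, lay between 30.2 and 36.2 CPM over all 20 libraries.

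**Figure D2:**
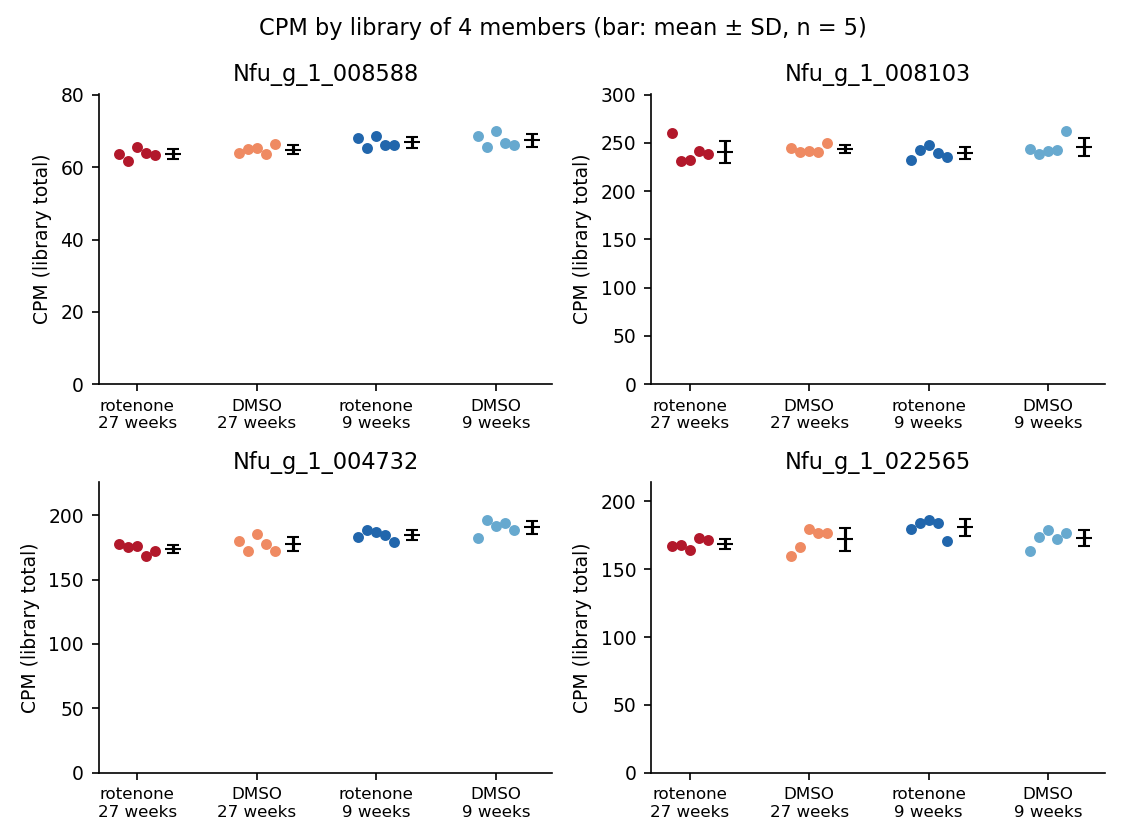
CPM of 4 members in each library (points), with mean ± SD of 5 libraries beside them, for rotenone and DMSO at 27 weeks and rotenone and DMSO at 9 weeks; the axis starts at 0. Nfu_g_1_008588 and Nfu_g_1_008103 are the members of lowest CV, and Nfu_g_1_004732 and Nfu_g_1_022565 the members with the largest called falls with age in DMSO and in rotenone fish.

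Most of the members' variance lay between libraries of the same group. Within groups lay a median of 80.7% of the variance of log2 CPM, against 59.1% for genes past the filter. The part between groups had a median of 19.3%, where 15.8% would arise on average from 4 groups of 5 with no difference. The 15.8% is a mean and not a median, so it is only a rough guide. Age held a median of 5.79% (25.6% for genes past the filter), rotenone 2.60% (3.35%) and their interaction 3.65% (2.54%). The rule favours a small part between groups. Counted by mean, 21 members were highest in rotenone fish of 27 weeks, 18 in DMSO fish of 27 weeks, 17 in rotenone fish of 9 weeks and 44 in DMSO fish of 9 weeks. In the same order of groups, 38, 25, 23 and 14 members had their lowest mean there. These counts were not made for genes past the filter, so they cannot be read as particular to the members.

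The spread within a group was smallest in old rotenone fish. The median CV of members over 5 libraries was 3.0% in rotenone at 27 weeks, 3.93% in DMSO at 27 weeks, 3.90% in rotenone at 9 weeks and 3.81% in DMSO at 9 weeks. Genes past the filter had the same lowest group, with medians of 6.21%, 9.28%, 8.43% and 8.07% in the same order of groups. The difference between groups in spread was not tested.

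Together the members took up a steady share of each library, which choosing genes by a low CV of their shares ensures. Their counts summed to 1.48% ± 0.0136 of all counts in rotenone and 1.49% ± 0.0192 in DMSO libraries of 27 weeks, and to 1.49% ± 0.0236 in rotenone and 1.51% ± 0.0284 in DMSO libraries of 9 weeks (SD, n = 5 each). Over all 20 libraries the share ran from 1.46% to 1.54%, and the groups overlapped. The extremes of single members fell on nearly all libraries, but unevenly. DMSO replicate 1 of 9 weeks was the lowest of 20 for 16 members and DMSO replicate 3 of 9 weeks the highest for 15. The members moved together only in part. The number of members above their own mean CPM ran from 25 in DMSO replicate 2 of 27 weeks to 81 in DMSO replicate 3 of 9 weeks. The median correlation over 20 libraries for the 4950 pairs of members was 0.11, from -0.79 to 0.80, with library totals shared by all values. The first principal component of the standardised members held 18.2% of their variance, against 35.6% for genes past the filter. These shares are not a like comparison. The rule favours a small part between groups, and counting made up more of the members' variance. On the members' first component the groups overlapped. Scores were -0.18 to 1.23 for rotenone and -1.14 to 1.01 for DMSO at 27 weeks. At 9 weeks they were -1.77 to 1.55 for rotenone and -1.79 to 1.64 for DMSO.

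Age differences were small in the members even where they were called, as the choice by a low CV over both ages favours. Counts of all genes were tested with edgeR's quasi-likelihood test and a gene was called where its p, adjusted by Benjamini-Hochberg over the 19452 genes tested, lay below 0.05. The members' calls are read beside the share of all genes called, without drawing anything from them, since the rule used every library. Between 27 and 9 weeks in DMSO fish, 3 members were called, all lower at 27 weeks, where 23.5% of all genes were called. In rotenone fish 3 members were called, all lower at 27 weeks, where 31.1% of all genes were called. Among genes past the filter, 30% were called in DMSO and 39.6% in rotenone fish. An unadjusted p below 0.05 was found for 17 members in DMSO fish, against 35.5% of all genes, and for 13 in rotenone fish, against 42% of all genes. DESeq2 called 2 members in DMSO fish, where it called 24.7% of all genes, and 9 in rotenone fish, where it called 32% of all genes. Members' log2 differences lay between -0.13 and 0.07 in DMSO and between -0.11 and 0.09 in rotenone fish. Their median was -0.04 in DMSO and -0.01 in rotenone, against 0.01 for all genes tested in each. The medians were not particular to the members. Genes past the filter had -0.03 in DMSO and -0.01 in rotenone, and the next 100 genes in the ranking -0.04 and -0.01. Of genes past the filter 3987 were higher and 4967 lower at 27 weeks in DMSO, and of the next 100 genes 33 were higher and 67 lower. In DMSO 20 members were higher and 80 lower at 27 weeks, called or not. With library totals in place of TMM scaling 35 were higher and 65 lower. In rotenone 38 were higher and 62 lower with TMM, and 45 higher and 55 lower with library totals. Libraries scaled by the members' own summed counts gave 55 higher and 45 lower in each treatment, a near-even split that this scaling sets by its construction.

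Nfu_g_1_004732 was the only member called for age in both treatments. It stood at 177, 175, 176, 169 and 172 CPM in rotenone libraries of 27 weeks, against 183, 189, 187, 185 and 179 CPM in rotenone libraries of 9 weeks. Its values in DMSO libraries of 27 weeks were 179.6, 172, 185, 177 and 172 CPM, against 183, 196, 191, 194 and 188 CPM in DMSO libraries of 9 weeks. In rotenone fish all libraries of 27 weeks lay below all of 9 weeks. There 6 members and 32.3% of genes past the filter had no overlap between the ages, in either direction. In DMSO fish the ages of Nfu_g_1_004732 overlapped in 1 library each. Its log2 difference was -0.10 ± 0.03 in rotenone (SE; edgeR adjusted p = 0.0323) and -0.13 ± 0.03 in DMSO fish (edgeR adjusted p = 0.0102), and its mean CPM differed by -5.88% in rotenone and by -6.92% in DMSO fish. Age held 61.8% of the variance of its log2 CPM, the largest share among the members. With library totals, no filter on low counts, DESeq2 or 1 library left out, the call in DMSO was made in all 13 fits, and that in rotenone was lost in 8 of 13. With only the compared groups fitted, or with the members' scale, it was called in neither treatment.

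Nfu_g_1_022565 had the largest fall with age in rotenone fish. It stood at 167, 168, 164, 173 and 171 CPM in rotenone libraries of 27 weeks, against 179.5, 184, 186, 184 and 171 CPM in rotenone libraries of 9 weeks. The ages overlapped through the lowest library of 9 weeks. Its log2 difference was -0.11 ± 0.04 (SE; edgeR adjusted p = 0.0326), a call lost in 8 of the same 13 kinds of fit and with only the compared groups fitted. In DMSO fish it averaged 172 ± 8.31 CPM at 27 weeks and 173 ± 6.11 CPM at 9 weeks (SD, n = 5 each), a log2 difference of -0.04 ± 0.04 (SE), which was not called (edgeR adjusted p = 0.545). Whether the age effect differed between the treatments was tested for it and not called (log2 difference of -0.08 ± 0.05, SE, with an edgeR adjusted p of 0.68).

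The other called members were 2 in DMSO and 1 in rotenone fish. In DMSO the member of second highest mean level, Nfu_g_1_000970, averaged 607 ± 32.6 CPM at 27 weeks and 642 ± 14.8 CPM at 9 weeks (SD, n = 5 each). A further member averaged 294 ± 9.77 CPM at 27 weeks and 312 ± 16.02 CPM at 9 weeks (SD, n = 5 each). In the first of these, DMSO replicate 1 of 27 weeks was lowest at 558 CPM. The call of Nfu_g_1_000970 (edgeR adjusted p = 0.0373) was lost in 8 of the same 13 kinds of fit, also in that without this library. The further member was not called with library totals, without a filter on low counts or with DESeq2. The member called in rotenone fish averaged 96.03 ± 0.781 CPM at 27 weeks and 102.8 ± 2.98 CPM at 9 weeks. All its rotenone libraries of 27 weeks lay below all of 9 weeks, as given above for 32.3% of genes past the filter. At 27 weeks its rotenone libraries (95.2 to 97.3 CPM) also lay below all DMSO libraries (97.4 to 106 CPM), a difference that was not called. Between these groups 3 members and 5.2% of genes past the filter had no overlap. The number of members called moved with single libraries. For DMSO it was 6 without DMSO replicate 1 of 27 weeks or replicate 1 of 9 weeks, 5 without replicate 4 of 9 weeks, and 1 without replicate 2 or 3 of 27 weeks or replicate 2 or 5 of 9 weeks. For rotenone it was 0 without rotenone replicate 2 of 27 weeks or replicate 3 of 9 weeks. It was 1 without replicate 3 or 4 of 27 weeks or replicate 1 or 4 of 9 weeks, and 4 without replicate 2 or 5 of 9 weeks. Without replicate 1 or 2 of 9 weeks, 0 of the members called there were among those called with all libraries. Over all genes, the fits without 1 library called 3516 to 4631 genes in DMSO fish, against 4570 with all libraries. In rotenone fish they called 4989 to 6052 genes, against 6053.

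Between rotenone and DMSO at 27 weeks 0 members were called, where 0.391% of all genes were. There 1 member had an unadjusted p below 0.05, against 14.4% of all genes. At 9 weeks 0 were called, where 0.0257% of all genes were, and again 1 had an unadjusted p below 0.05, against 6.99% of all genes. For the difference of the rotenone effects between the ages 0 were called, where 0.0206% of all genes were, and 5 had an unadjusted p below 0.05, against 10% of all genes. DESeq2 also called 0 members in these 3 comparisons, where it called 2.79% of all genes at 27 weeks, 0.46% at 9 weeks and 0.852% for the difference. The members' log2 differences between rotenone and DMSO ran from -0.08 to 0.10 at 27 weeks and from -0.10 to 0.08 at 9 weeks.

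The intervals of the members were narrow, as the choice by CV over the same libraries favours. In each of the 4 comparisons of age and rotenone, the 95% interval of the fold change lay within 1.2-fold for all 100 members, and so it did for all of the next 100 genes. Of the 8954 genes past the filter, 16.6% had all 4 intervals within this bound. The lowest bound over the members was -0.21 and the highest 0.19 on the log2 scale. Their SE had a median of 0.04 for members, against 0.08 for genes past the filter. Both the differences and the SE come from libraries that the rule used, so the intervals are a description and no bound on a missed effect.

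**Figure D3:**
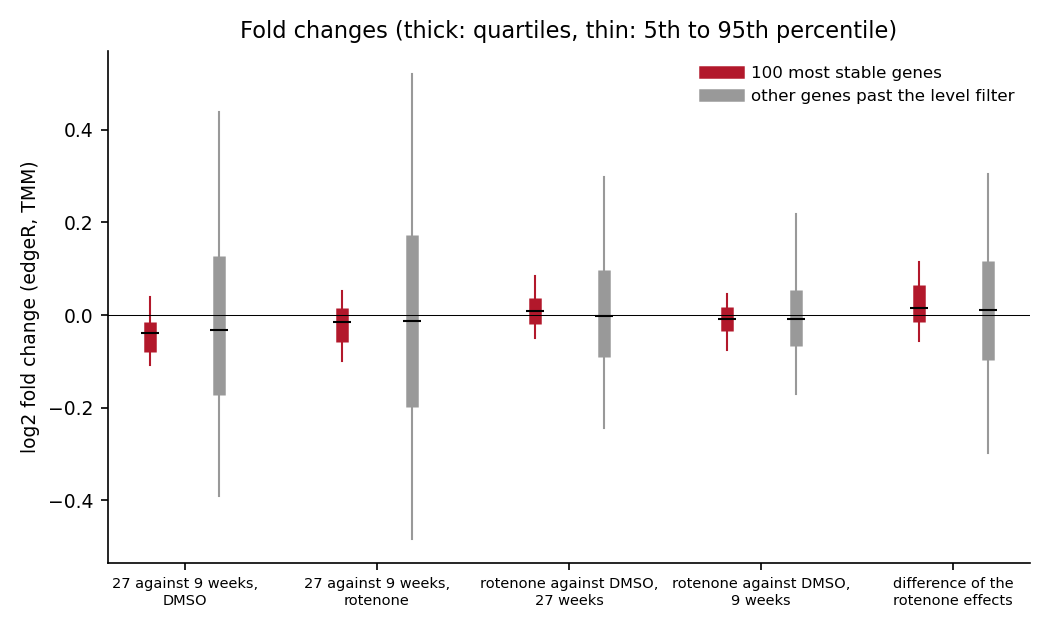
Log2 fold changes (edgeR, TMM) in the 5 comparisons for the 100 most stable genes (red) and the other genes past the level filter (grey), as median, quartiles (thick) and 5th to 95th percentile (thin). Medians of the members lie between -0.04 and 0.01, and the grey ranges are widest for age.

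Libraries that the rule had not used gave a check of it. The same rule was applied to 10 libraries at a time, and the 100 genes it took were measured in the other 10. Genes chosen in rotenone libraries had a median CV of 3.32% there and of 6.04% in DMSO libraries, where the genes past the filter had 11.3%. Genes chosen in DMSO libraries had 3.48% there and 5.85% in rotenone libraries, against 11.03%. Genes chosen at 27 weeks had 2.93% there and 5.22% at 9 weeks, against 8.78%, and genes chosen at 9 weeks had 3.11% there and 5.63% at 27 weeks, against 8.87%. In the unused libraries the CV of such genes was thus higher than where they were chosen, and lower than that of most genes. The lists were not matched for level with the genes past the filter. Over all 20 libraries the median CV of those genes was 13.6% in the lowest decile of level and 10.1% in the highest. Of the 100 genes in each list, 99 from rotenone, 97 from DMSO, 94 from 27 weeks and 87 from 9 weeks had an unused CV below the median, and 8 or 9 of each list were among the lowest 1%.

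**Figure D4:**
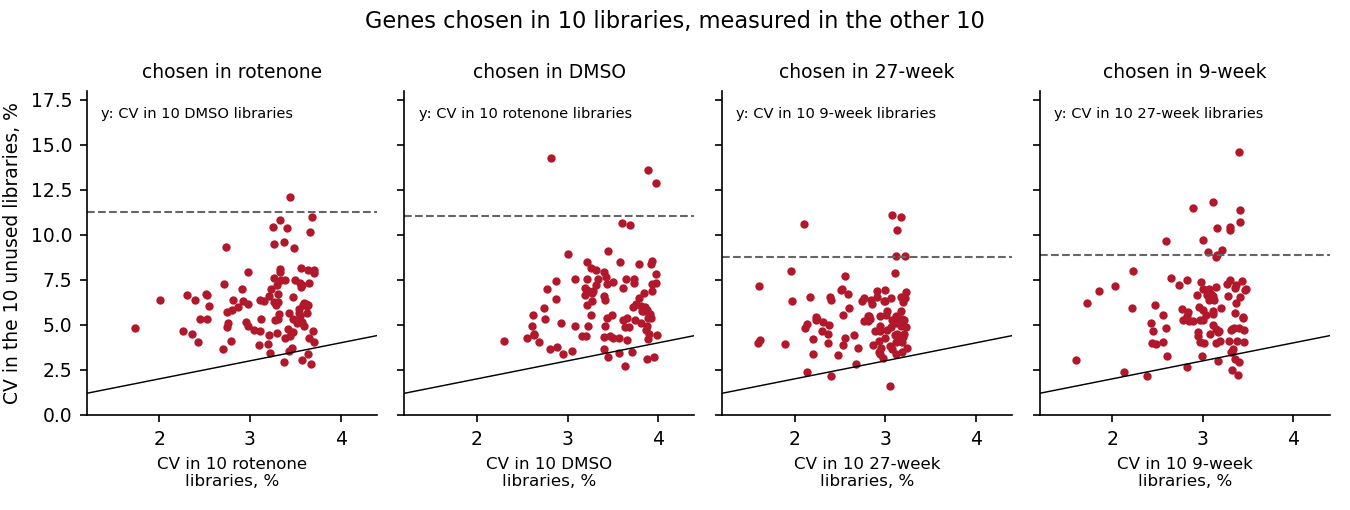
CV of the 100 genes that the rule took from 10 libraries (horizontal, %) against their CV in the 10 libraries it did not use (vertical, %), for lists from rotenone, DMSO, 27-week and 9-week libraries. The solid line marks equal CVs and the dashed line the median unused CV of all genes past the filter (11.3%, 11.03%, 8.78% and 8.87%); most points lie between the lines.

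The lists themselves differed. Those from rotenone and DMSO libraries shared 10 of their 100 genes, and those from 27-week and 9-week libraries shared 9. Of the 100 members over all libraries, 41 were in the rotenone list, 37 in the DMSO list, 31 in the 27-week list and 17 in the 9-week list. In all 4 lists stood 2 members, and 24 members stood in none of them. Leaving out 1 library at a time kept 75 to 91 members, and 62 members were kept in all 20 such lists.

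The same lists allowed tests in libraries that had not chosen them. Genes chosen as stable over both ages in rotenone fish were tested for age in DMSO fish, in a fit of the 10 DMSO libraries alone. Of these genes 7 were called, all lower at 27 weeks, against 16.1% of all genes tested and 21.6% of genes past the filter (edgeR). An unadjusted p below 0.05 was found for 21 of them, against 31.9% of all genes, and DESeq2 called 12, against 20.8% of all genes. Their median absolute log2 difference was 0.07, against 0.15 for genes past the filter. The 7 fell to between 0 and 4 whichever of the 10 libraries was left out: 0 without replicate 3 of either age, 1 without replicate 2 or 4 of 27 weeks or replicate 2 or 5 of 9 weeks, 2 without replicate 1 of 27 weeks, and 4 without replicate 5 of 27 weeks or replicate 1 or 4 of 9 weeks. Calls over all genes were not counted in these fits of 9 libraries, here or below. Such changes can therefore not be read as particular to the list. Genes chosen as stable over both ages in DMSO fish were tested for age in rotenone fish. Of these 18 were called, 5 higher and 13 lower at 27 weeks, against 34.5% of all genes tested. An unadjusted p below 0.05 was found for 28 of them, against 44.9% of all genes, and DESeq2 called 22, against 35.4% of all genes. Without rotenone replicate 2 or 5 of 27 weeks 10 were called. Their median absolute log2 difference was 0.07, against 0.18 for genes past the filter, and the largest called one was 0.34.

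Of the genes chosen at 9 weeks, 0 were called between rotenone and DMSO at 27 weeks (edgeR, 10 libraries of that age), where 0.11% of all genes were. An unadjusted p below 0.05 was found for 21 of them, against 15.1% of all genes and 1658 of 8872 genes past the filter. DESeq2 called 6 of them, 3 higher and 3 lower with rotenone, where it called 3.2% of all genes, and without DMSO replicate 1 of 27 weeks edgeR called 1. Of the genes chosen at 27 weeks, 0 were called at 9 weeks, where 0.00528% of all genes were, 5 had an unadjusted p below 0.05, against 6.53% of all genes, and DESeq2 called 0, where it called 0.512% of all genes.

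The split of age calls over all genes moved with the scale of the libraries, which shifts all genes alike. With libraries scaled by the members' summed counts, 2426 genes were higher and 2097 lower at 27 weeks in DMSO fish, against 1876 higher and 2694 lower with TMM, and 2149 higher and 2263 lower with library totals. The median of all genes tested was 0.05 on the log2 scale with the members' scale, 0.01 with TMM and 0.03 with library totals. In rotenone fish 2788 were higher and 3321 lower with the members' scale, against 2506 and 3547 with TMM. For rotenone against DMSO at 27 weeks the members' scale gave 36 higher and 143 lower and library totals 32 higher and 96 lower, against 29 and 47 with TMM. The members were chosen on library totals in the same libraries, so their scale is no independent check of either of the others. Scaled in this way, the members called for age were 2 in DMSO and 3 in rotenone fish, and only 1 of these, in rotenone, was among those called with TMM. The 2 called in DMSO were higher at 27 weeks, where those called with TMM were all lower. With TMM each of these 2 had a log2 difference of 0.07, which was not called. The members' median in DMSO was -0.04 with TMM and 0.01 with the members' scale.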

How the data were processed

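Brain RNA of male killifish was sequenced in 20 libraries, 5 in each of 4 groups read from the labels. Replicates were numbered by accession, and a shared number links no libraries. The tools named, per the submitters' processing notes, are featureCounts 1.4.6-p4, STAR 2.4.1d and bcl2fastq 1.8.4. Build, annotation and strand setting: not given in the sources used here, so reads of overlapping genes or near-identical copies may be split. The deposited counts are whole numbers per gene, not normalized. The deposited RPKM divide by totals in recycled order: with each library's own total 3.69% of 431241 values were recovered within 0.0011 RPKM, with recycled totals 99.997%. RPKM served only to recover gene lengths.

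The members and lists were chosen with earlier results of these data known. CPM were computed with library totals. The test was edgeR 4.0.16's quasi-likelihood test on the counts, under R 4.3.3 (filterByExpr by group, 19452 genes, TMM factors 0.980 to 1.02, robust quasi-likelihood fit with 1 mean per group), and DESeq2 1.42.0 was an alternative. Log2 CPM used for variance shares were log2(CPM + 1). Intervals are at 95%. Fits were checked on simulated counts with planted changes larger than any difference of the members, so the check does not cover differences of their size. Every pair of libraries within a group differed by more than sampling noise (chi-square per degree of freedom 7.80 to 57.1 over 40 pairs). Named by rule were the 3 members of lowest CV, the last member and first gene outside, the 2 of highest and of lowest mean, and per comparison the called members with the largest rise and fall. Other called members are given by value, without their identifiers. Without gene names no gene list was tested. Alternatives were other scalings, filters, tools and rules, and leaving out each library.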

Additional observations from a re-analysis of the deposited data

Results flagged for a closer look

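Of 56 sets of 5 libraries examined for printed genes and library measures, 1 held a library set apart from the rest by a gap of over 0.71 of the range, and chance at 1 in 20 gives about 2.8 such sets. Nfu_g_1_008103 stood at 262 CPM in DMSO replicate 5 of 9 weeks, against 244 CPM in the nearest library of that group.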

How the results depend on the processing

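No paired analysis was possible because the labels give no replicate numbers shared by the groups. The cause of the moves below was not tested. Of the 100 members, 58 were kept with the Poisson variance subtracted, 34 by the CV within groups, 37 from DMSO, 41 from rotenone, 31 from 27-week and 17 from 9-week libraries, 71 to 100 under the other 6 rules, and 75 to 91 without 1 library. Members called for age in DMSO were 1 with library totals (over all genes 2149 higher and 2263 lower) or without a filter on low counts (1749 and 2566). They were 0 with only the compared groups fitted, where 16.1% of all genes were called, and 1 to 6 without 1 library. In rotenone they were 0 with library totals (over all genes 2687 higher and 3383 lower) or only the compared groups (34.5% of all genes called). They were 9 with DESeq2 (which called 32% of all genes), 1 with the Poisson variance subtracted, and 0 to 4 without 1 library. Members called for rotenone at 27 weeks, at 9 weeks or for their difference were 0 throughout. Over all genes, age calls stayed within 1.5 times (3516 to 4631 in DMSO and 4989 to 6052 in rotenone without 1 library). Calls for rotenone at 27 weeks were 128 with library totals, 179 with the members' scale, 478 with DESeq2, 21 with only the compared groups, and 27 (without rotenone replicate 4 of 27 weeks) to 266 (without DMSO replicate 1 of 27 weeks) without 1 library. At 9 weeks they were 91 with DESeq2, 1 with only the compared groups, and 0 to 24 (without DMSO replicate 5 of 9 weeks) without 1 library. For the difference of these effects they were 13 with the members' scale, 150 with DESeq2, and 0 to 34 (without DMSO replicate 1 of 27 weeks) without 1 library. Of genes chosen in rotenone libraries, 3 were called for age in DMSO with library totals or without a filter, 12 with DESeq2 (which called 20.8% of all genes), and 0 to 4 without 1 library. Of genes chosen in DMSO libraries, 10 to 19 were called for age in rotenone without 1 library. Of genes chosen at 9 weeks, 6 were called for rotenone at 27 weeks with DESeq2 (which called 3.2% of all genes), and 0 to 1 without 1 library. For these lists, calls over all genes were not counted in fits without 1 library, with library totals or without a filter. In the smallest library 1 count was 0.0515 CPM, and counting error limits the ranking of genes near 20 CPM.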

Other observations

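The genes next in the ranking resembled the members. The next 100 genes had a median CV of 4.83%, a median of 94.8 CPM and a median length of 4099.5 bases. Of these, 7 were called for age in DMSO, all lower at 27 weeks, where 23.5% of all genes were called. In rotenone 7 were called, 1 higher and 6 lower, where 31.1% of all genes were called. Among genes past the filter, 30% were called in DMSO and 39.6% in rotenone. Ranked on CPM scaled by TMM, the farthest member stood at rank 267, and with the Poisson variance subtracted at rank 243. Under all 8 other ways of ranking over the 20 libraries 27 members were kept.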
